A study of Mus musculus with 96 samples.

Results

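The 16 libraries described here are the skeletal muscle of male mice 1 to 16, taken from a series of 96 RNA sequencing libraries of liver, muscle and cerebral cortex. They were chosen by their labels, as the muscle columns of mice 1 to 8, which fed ad libitum (AL), and of mice 9 to 16, which were kept on intermittent fasting (IF). All were C57BL/6 mice on normal chow, divided between the diets at 6 weeks of age and kept on them for 4 months, with 8 mice per diet. The IF mice went without food for 16 h of every day and could eat from the morning to the middle of the afternoon. All mice were killed within a span of morning hours that ran past the scheduled end of the fast, and were perfused with chilled saline. The study states that the IF mice were at the end of that day's fast, but the hour of each mouse is not given, and whether any had food again is not known. Which muscle was taken is not named. The months on the regimen, the fast of the last night and the daytime feeding hours therefore cannot be told apart in this comparison, which asks how the muscle transcriptome of mice at or near the end of a daily fast differs from that of mice with food at hand.

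Skeletal muscle is the largest consumer of glucose after a meal and one of the main users of fatty acids in a fast. As insulin falls and fatty acids and glucocorticoids rise in the blood, muscle fibres hold back pyruvate from oxidation, burn fatty acids, and break down protein whose amino acids feed gluconeogenesis in the liver. These programmes run through a few well known regulators: the fatty acid sensors of the PPAR family, the FoxO factors that insulin restrains, the glucocorticoid receptor, and the circadian clock, which meal times can shift in peripheral tissues.

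Between 29181553 and 46889676 reads were counted on genes in the AL libraries and between 28319147 and 45019446 in the IF libraries. Levels are given in CPM, a library's counts on a gene scaled to a common total, with edgeR's TMM factors, as the lowest and the highest of the 8 mice of a diet with the median. On the log2 CPM of all genes tested, the diets took 23.8% of the squared distance between libraries, and exact permutation of the diet labels, in all 12870 ways of drawing 8 of 16, gave p = 0.000155, the smallest these permutations can give. The first principal component held 24.7% of the variance and separated every IF mouse from every AL mouse. The libraries farthest from their own diet were IF mouse 11 and AL mouse 8.

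The markers were those of muscle, and fast fibre genes dominated: alpha-actin (Acta1) stood at 42521 to 48407 CPM (median 44693) in AL and 35731 to 50441 CPM (median 39178) in IF, and the fast myosin heavy chain Myh4 at 34028 to 40468 CPM (median 37827) and 29423 to 43812 CPM (median 37720.4). Per kilobase of gene length, Myh4 made up 90.4 to 95.2% of 6 sarcomeric myosin heavy chains in AL and 91.3 to 98.1% in IF, by far the largest share in both diets. Another fast isoform, Myh1, followed at medians of 4.36 and 3.24%, and the slow isoform Myh7 stood at 0.1703 and 0.108%. The fast troponin C gene Tnnc2 averaged under 1 CPM, although its protein is a main part of fast fibres; it overlaps Ube2c on the opposite strand, and its value is uncertain. Of the 12 skeletal muscle markers, 5 were lower in IF (median over the list -0.17), and 2 were in the fit over 3 tissues; their sum was 178552 to 195155 CPM (median 182335) in AL and 146027 to 201691 CPM (median 168563) in IF. The slow fibre genes varied widely between mice of the same diet. Their sum over 10 genes was 65.9 to 3068 CPM (median 1216) in AL and 88.8 to 935 CPM (median 668) in IF, with Myl3 the most abundant. These sums overlapped between the diets, and 1 of the 10 genes was lower in IF by the test described in the account of all genes.

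Among other cell types, most of the fat cell markers were higher in IF. The summed level of 10 adipocyte markers was 284 to 994 CPM (median 511) in AL and 658 to 4223 CPM (median 1955) in IF, with Fabp4 the most abundant, and 9 of the 10 were higher in IF. Tendon markers moved the other way: their 5 genes summed to 14.9 to 55.3 CPM (median 33.8) and 6.65 to 19.9 CPM (median 10.2), with Fmod the most abundant, and 4 of 5 were lower. Both sums overlapped between the diets, and 23.0% of all genes passed the same test. Whether there were more or fewer fat and tendon cells or more or less RNA in each cannot be told apart in bulk tissue. Endothelial markers (187 to 234 CPM (median 220.0) in AL, 179 to 253 CPM (median 204) in IF), satellite cell markers (20.9 to 29.9 CPM (median 24.2) and 20.96 to 31.1 CPM (median 26.03)) and Schwann cell markers (61.1 to 269 CPM (median 104.9) and 70.8 to 277 CPM (median 135)) lay in overlapping ranges. So did the macrophage markers, at 51.8 to 115 CPM (median 91.1) and 43.98 to 104 CPM (median 66.6), the fibroblast markers, at 338 to 505 CPM (median 430.1) and 234 to 458 CPM (median 370.3), and the erythrocyte markers, at 190.1 to 895 CPM (median 358) and 251 to 544 CPM (median 428). Of 8 endothelial markers 1 was higher and 1 lower by the test. In the macrophage list 1 of 8 was lower and in the fibroblast list 2 of 7. No satellite cell, Schwann cell or erythrocyte marker passed. Markers of neurons summed to at most 1.27 CPM and those of cardiac muscle to at most 8.52 CPM in any mouse. The keratinocyte markers summed to 2.47 to 3.69 CPM in AL and 2.05 to 2.92 CPM in IF. Krt10 was the most abundant of them (mean 2.66 CPM), and Krt5 and Krt1 were at 0 in all 16 libraries. Of the hepatocyte markers only transferrin (Trf), which other tissues also express, reached 1 CPM on average.

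Genes of fuel use, the clock, protein breakdown and lipid synthesis were among those that differed between IF and AL muscle, amid many small changes in both directions. Of 56748 genes in the table, 15025 passed the expression filter and were tested with edgeR's quasi-likelihood test, and 3463 of them, or 23.0%, had a Benjamini-Hochberg adjusted p under 0.05, which is what called, rose and fell mean below. 1726 genes (11.5%) were higher in IF and 1737 (11.6%) were lower, with median log2 fold changes of 0.44 and -0.38 against a median of 0.01 over all genes tested. Changes of at least 2-fold (2.66% of genes) were mostly increases: 280 genes rose and 119 fell by at least 2-fold, and 87 rose and 15 fell by at least 4-fold. For 613 genes (4.08%) no IF mouse overlapped any AL mouse, 276 of them called higher and 334 called lower. Of the genes called, 1907 overlap another annotated gene. Whether strand was used in counting is not stated, so reads of such pairs cannot be told apart. Fitted together with liver and cortex, 2202 genes were called in muscle, 1233 higher and 969 lower.

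**Figure D1:**
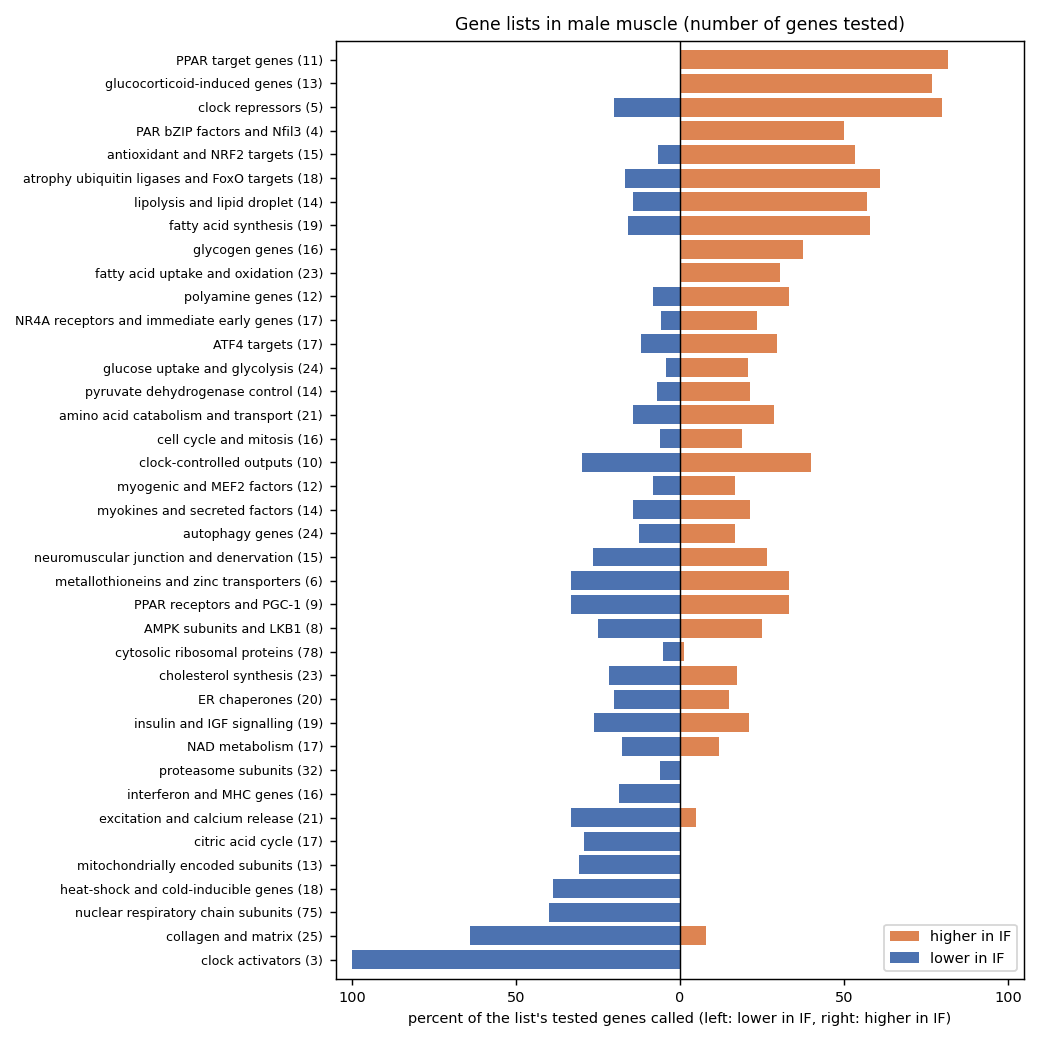
For pathway gene lists, the bars give the percent of a list's tested genes called higher in IF (right) or lower in IF (left), with the number tested after the list's name. Bars reach far to the right for PPAR targets and glucocorticoid-induced genes and to the left for the respiratory chain and for collagen and matrix.

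Genes that turn muscle from glucose to fat rose in IF. Of the 14 listed PPAR targets, 11 were tested, and 9 rose, with a median log2 fold change of 1.03. Pdk4, the kinase that shuts off pyruvate dehydrogenase, lay at 114 to 340.3 CPM (median 213) in AL and 786 to 1665 CPM (median 1317) in IF, a 5.98-fold rise (log2 fold change 2.58 ± 0.23, adjusted p 1.99e-06, n = 8 per diet, edgeR). Every IF mouse lay above every AL mouse. Ucp3, a mitochondrial carrier that muscle induces when fatty acids are plentiful, lay at 48.8 to 95.99 CPM (median 66.1) in AL and 199 to 439 CPM (median 319.7) in IF (2.16 ± 0.18, adjusted p 6.57e-07), again without overlap. Angptl4, a secreted inhibitor of lipoprotein lipase, stood at 2.94 to 11.9 CPM (median 4.901) and 17.8 to 80.7 CPM (median 39.5) (2.80 ± 0.38, adjusted p 0.000138). The thioesterase Acot2 (1.03, adjusted p 1.91e-06), the uncoupling protein Ucp2 (0.82, adjusted p 0.00145) and Txnip, which restrains glucose uptake (0.46, adjusted p 0.00116), rose as well. The mean of the adipocyte markers was tried as a covariate; these markers move with the diet, so it can also take up part of the diet's own effect. With it, Pdk4 kept a log2 fold change of 2.73 (adjusted p 4.62e-05), while Ucp2 no longer passed (adjusted p 0.0804).

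**Figure D2:**
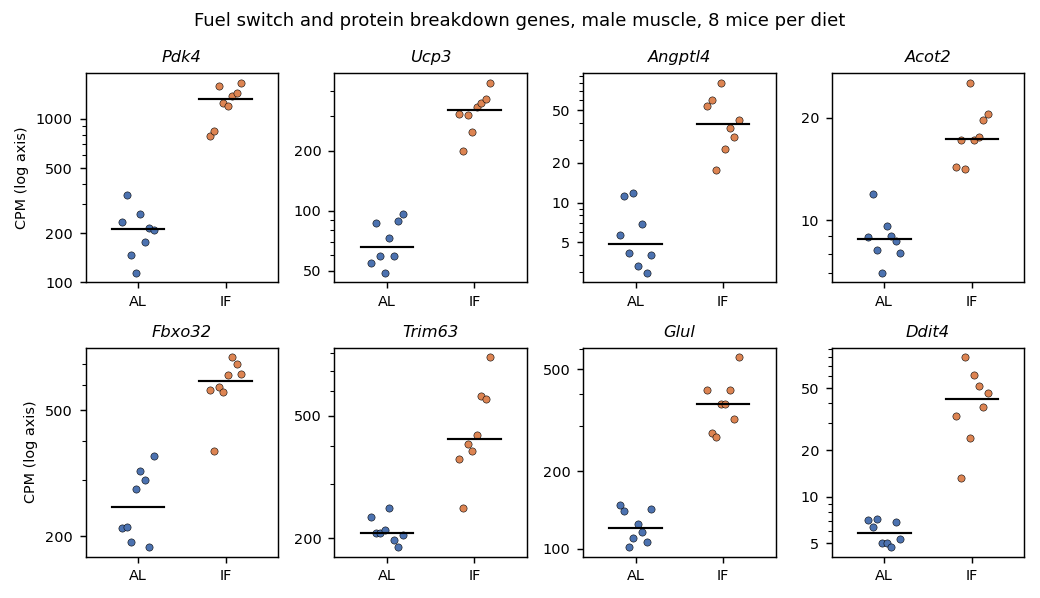
Each point is the CPM of 1 mouse on a log axis for genes of fuel use (upper panels) and protein breakdown or its signals (lower panels), AL on the left and IF on the right of each panel, with a bar at the median of 8 mice. The groups are separate in all panels except that of Trim63, in which 1 IF mouse lies beside the highest AL mouse. The genes drawn were picked with their results known, and 4.08% of all genes tested had no overlap.

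The list of fatty acid oxidation genes had a lower median than the PPAR targets. Of 23 genes for fatty acid uptake and oxidation, 7 rose, with a median of 0.12. The share called, 30.4%, was not far above the 23.0% over all genes. The 3 largest rises were in genes of entry: lipoprotein lipase Lpl (338 to 607 CPM (median 373) in AL, 559.6 to 1169.8 CPM (median 644) in IF; log2 fold change 0.80, adjusted p 0.0019), the fatty acid transporter Cd36 (0.61, adjusted p 0.00213) and the acyl-CoA synthetase Acsl1 (0.55, adjusted p 0.00558). IF mouse 12, the mouse with the highest adipocyte marker sum, was also the highest for all 3, and none of them passed with the adipocyte markers as a covariate (adjusted p 0.103, 0.102 and 0.28), with 1 gene of the list still called higher and 4 then called lower. Inside the mitochondrion, the auxiliary enzyme Eci2, which handles double bonds, rose slightly (0.37, adjusted p 0.000821), as did 3 others of the list. Of the PPAR receptors, their partners and coactivators, 3 of 9 rose and 3 fell. The coactivator Ppargc1a, a driver of mitochondrial biogenesis, lay at 14.4 to 19.5 CPM (median 16.3) in AL and 16.3 to 32.7 CPM (median 29.4) in IF (0.70, adjusted p 0.000422), and the corepressor Nrip1, which opposes oxidative genes, at 7.05 to 11.8 CPM (median 9.28) in AL and 19.6 to 37.8 CPM (median 24.2) in IF (1.46, adjusted p 1.39e-07) without overlap. The nuclear receptors Esrra (-0.51, adjusted p 0.000472), Ppard (-0.40, adjusted p 0.000504) and Rxrg (-0.33, adjusted p 0.000598) were lower. The fat cell receptor Pparg rose from a median of 2.47 to 5.58 CPM (1.34, adjusted p 0.00537), highest in IF mouse 12 and not passing with the adipocyte covariate (adjusted p 0.294). Ppard and Rxrg did not pass in the fit over 3 tissues (adjusted p 0.114 and 0.602).

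The core clock differed between the diets in every activator and repressor listed: the activators and Cry1 were lower in IF, and the Period genes and Cry2 were higher. The clock is a loop in which BMAL1 with CLOCK or NPAS2 switches on the Per and Cry repressors and the REV-ERB receptors, and the REV-ERB and ROR receptors in turn set Bmal1. All mice were sampled within a span of morning hours, the hour of each mouse and the order of AL and IF mice are not given, and a shift of the clock, a difference in sampling hour and a change in level cannot be told apart. Of 3 activators, 3 fell, with a median of -1.003. Bmal1, listed as Arntl, stood at 16.6 to 26.4 CPM (median 21.7) in AL and 6.69 to 14.4 CPM (median 10.2) in IF (-1.003 ± 0.13, adjusted p 2.99e-05). Clock lay at 14.3 to 20.2 CPM (median 16.7) in AL and 9.12 to 13.4 CPM (median 12.3) in IF (-0.51, adjusted p 0.000152), and Npas2, the least abundant, at 0.989 to 2.06 CPM (median 1.32) in AL and 0.0711 to 0.4003 CPM (median 0.2701) in IF (-2.38, adjusted p 5.69e-06). No AL mouse overlapped an IF mouse in any of these. Of the 5 repressors, 4 rose and 1 fell. Per1 rose most, at 9.04 to 23.1 CPM (median 15.7) in AL and 33.6 to 80.002 CPM (median 66.9) in IF (2.04 ± 0.20, adjusted p 4.86e-06). Per2 followed, at 0.882 to 6.06 CPM (median 3.15) in AL and 7.85 to 14.1 CPM (median 9.96) in IF (1.59, adjusted p 0.00049), and Per3 lay at 5.11 to 10.9 CPM (median 7.59) in AL and 15.02 to 17.9 CPM (median 17.2) in IF (1.05, adjusted p 1.29e-06). All 8 IF mice lay above all AL mice in the Period genes. The cryptochromes parted: Cry2 rose (0.39, adjusted p 0.000787) and Cry1 fell, at 12.8 to 16.9 CPM (median 14.2) in AL and 9.52 to 12.4 CPM (median 11.04) in IF (-0.41, adjusted p 0.000391), a fall that did not pass in the fit over 3 tissues (adjusted p 0.0664).

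Nr1d1, which encodes REV-ERB-alpha, showed the largest fall of any gene with a mean of at least 1 CPM and no overlap between the diets. It stood at 168 to 254 CPM (median 214) in AL and 27.3 to 50.7 CPM (median 38.5) in IF, 5.54-fold lower (log2 fold change -2.47 ± 0.12, adjusted p 4.51e-10), and the highest IF mouse lay far under the lowest AL mouse. Nr1d1 shares its locus at chromosome 11, 98658758 to 98666159 (GRCm39), with Thra on the opposite strand, and the noncoding gene ENSMUSG00000121096, which lies within Thra on its strand and ends close to Nr1d1, also fell (-1.26, adjusted p 1.2e-07). Its paralog Nr1d2 rose instead (0.36, adjusted p 0.00854), which did not pass over 3 tissues (adjusted p 0.053). The opposing receptor Rora rose (0.56, adjusted p 8.39e-05). Among the outputs, Tef rose (169 to 246 CPM (median 203), 229.6 to 305 CPM (median 261), 0.35, adjusted p 0.0014), as did the deubiquitinase Usp2, at 90.96 to 122 CPM (median 112) in AL and 149.7 to 206 CPM (median 185) in IF (0.72, adjusted p 1.46e-06), and Bhlhe40 fell (-0.45, adjusted p 0.0063), though not over 3 tissues or with the adipocyte covariate (adjusted p 0.123 and 0.315). Dbp, usually the output with the widest daily swing, did not pass, at 13.3 to 51.4 CPM (median 36.9) and 30.3 to 59.7 CPM (median 37.7) (0.20, adjusted p 0.594), nor did Ciart, at 0.882 to 4.18 CPM (median 2.28) and 1.41 to 3.26 CPM (median 2.15) (-0.09, adjusted p 0.856). In counts, 2 of 4 PAR bZIP genes and Nfil3 rose, and 4 of 10 listed outputs rose and 3 fell.

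**Figure D3:**
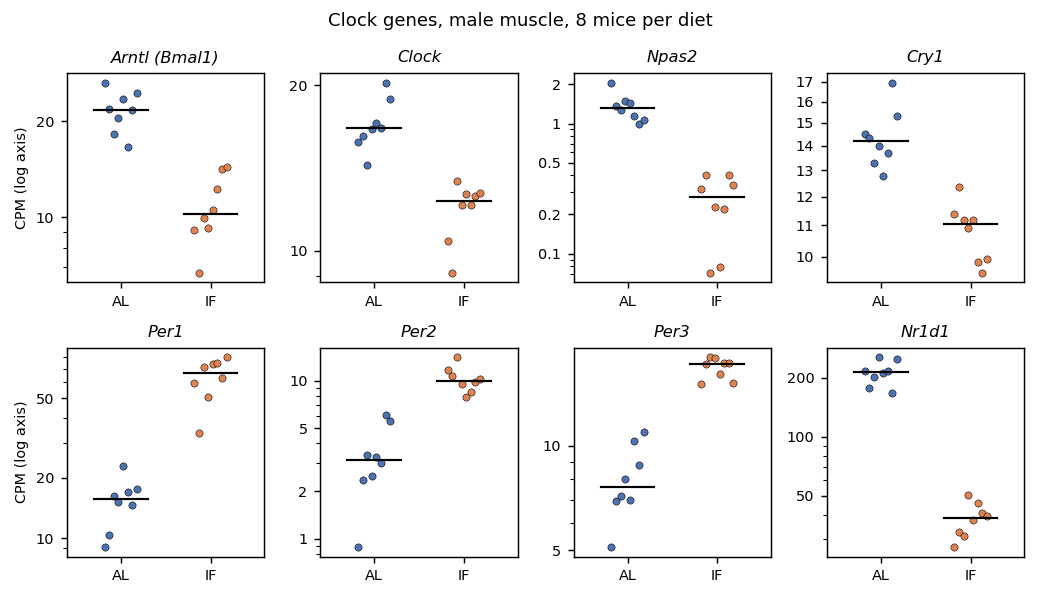
Each point is the CPM of 1 mouse on a log axis for 8 clock genes, with a bar at the median of 8 mice per diet. AL and IF mice do not overlap in any panel, with Arntl, Clock, Npas2, Cry1 and Nr1d1 lower and Per1, Per2 and Per3 higher in IF. These genes were picked with their results known, and 4.08% of all genes tested had no overlap. Dbp and Ciart, in which the diets overlapped, are among the clock genes not drawn.

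BMAL1 and its partner bind E-boxes, and the PAR bZIP factors bind D-boxes. The promoters of 3 clock genes are shown because they carry these letters and because their genes moved in both directions. RefSeq promoter windows of GRCm38.p6, 300 bases from 250 before to 50 after a gene's start, were found for 20 of 27 listed clock genes. The E-box letters CACGTG, which read the same on both strands, are in at least 1 window of 6 of them, Per1, Cry1, Tef, Ciart, Bhlhe41 and Tspan4. They are in 7.15% of all 32851 windows. The 20 genes have 27 windows between them, so a count of genes and a share of windows are not in the same unit. The D-box letters TTATGTAA, read on both strands, are in that of Per3 and in 0.938% of all windows. Bmal1, Clock, Npas2, Nr1d1, Dbp and Usp2 hold neither in these windows, and Per2, Bhlhe40 and Wee1 are among those not in the table. Per1 (chr11:69098699-69098998, plus strand) and Cry1 (chr10:85185005-85185304, minus strand) carry an E-box, the first in a gene that rose and the second in one that fell; Per3 (chr4:151044616-151044915, minus strand) carries 2 D-boxes. The capitals mark the matched letters.
Per1: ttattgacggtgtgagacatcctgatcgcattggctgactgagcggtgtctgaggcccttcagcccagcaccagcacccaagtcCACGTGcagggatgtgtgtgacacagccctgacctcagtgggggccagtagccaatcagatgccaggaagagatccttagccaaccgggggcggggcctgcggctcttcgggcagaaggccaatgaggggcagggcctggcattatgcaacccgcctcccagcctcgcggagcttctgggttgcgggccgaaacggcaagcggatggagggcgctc
Cry1: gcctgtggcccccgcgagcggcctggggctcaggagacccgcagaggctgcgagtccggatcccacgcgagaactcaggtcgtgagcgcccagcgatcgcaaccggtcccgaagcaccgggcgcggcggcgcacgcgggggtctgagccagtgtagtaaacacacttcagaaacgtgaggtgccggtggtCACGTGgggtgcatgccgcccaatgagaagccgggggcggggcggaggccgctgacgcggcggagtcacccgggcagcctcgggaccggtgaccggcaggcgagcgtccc
Per3: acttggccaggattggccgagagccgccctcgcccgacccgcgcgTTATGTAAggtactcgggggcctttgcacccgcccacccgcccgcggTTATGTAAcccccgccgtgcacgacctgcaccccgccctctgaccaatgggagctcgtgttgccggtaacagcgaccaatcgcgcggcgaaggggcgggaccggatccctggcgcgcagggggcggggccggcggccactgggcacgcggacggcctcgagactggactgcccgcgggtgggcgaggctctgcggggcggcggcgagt

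Most of the listed genes that glucocorticoids induce rose. Glucocorticoids climb in a fast and before the active phase, and in muscle they turn protein synthesis down and breakdown up. Of 13 tested genes of 14 listed, 10 rose, with a median of 0.77. Ddit4, a brake on the growth kinase mTORC1, lay at 4.71 to 7.21 CPM (median 5.84) in AL and 13.2 to 79.8 CPM (median 42.5) in IF (2.88 ± 0.31, adjusted p 1.41e-05), and all 8 IF mice lay above all AL mice. Glul, which makes the glutamine that muscle exports, rose, lying at 101.3 to 148 CPM (median 121) in AL and 272 to 557 CPM (median 366) in IF (1.597 ± 0.13, adjusted p 4.13e-07), also without overlap. Tsc22d3, known as GILZ, lay at 102 to 144 CPM (median 135) in AL and 202 to 391 CPM (median 335) in IF (1.28, adjusted p 1.91e-06) and the factor Cebpd at 11.4 to 24.3 CPM (median 14.9) in AL and 23.1 to 109 CPM (median 60.6) in IF (2.05, adjusted p 0.000197). Only 1 IF mouse reached into the AL range for Cebpd. The kinase Sgk1 (1.27, adjusted p 0.000134) and the factors Klf15 (0.77, adjusted p 3.71e-06), Klf9 (0.63, adjusted p 0.000295) and Cebpb (0.76, adjusted p 0.000123) rose too. Klf15 drives the breakdown of branched-chain amino acids. Fkbp5, a glucocorticoid target in many tissues, did not pass here, at 21.3 to 54.2 CPM (median 28.5) in AL and 17.9 to 52.4 CPM (median 24.5) in IF (-0.12, adjusted p 0.768).

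The best known ubiquitin ligases of muscle atrophy rose, and few proteasome subunits passed the test. FoxO factors switch on these ligases when insulin and growth signals fall. Of 18 atrophy and FoxO genes, 11 rose and 3 fell, with a median of 0.44. Fbxo32, the ligase atrogin-1, stood at 184 to 359 CPM (median 248) in AL and 372 to 738 CPM (median 619.9) in IF (1.23 ± 0.16, adjusted p 4.82e-05). Trim63, the ligase MuRF1, lay at 187 to 250.3 CPM (median 209) in AL and 250.1 to 776 CPM (median 419) in IF (1.14 ± 0.18, adjusted p 0.000322), and Fbxo21 at 11.5 to 14.98 CPM (median 12.2) in AL and 19.1 to 41.9 CPM (median 27.4) in IF (1.15, adjusted p 4.75e-06). Of 4 other ligases in the list, 3 did not pass and 1 fell, and the other 2 genes that fell encode FoxO factors. For Fbxo32 and Fbxo21 no mouse overlapped, and for Trim63 1 IF mouse did. The growth-arrest gene Gadd45a rose, lying at 9.74 to 16.1 CPM (median 12.2) in AL and 20.8 to 40.03 CPM (median 27.95) in IF (1.16, adjusted p 1.2e-05). Sesn1 (0.70, adjusted p 0.000491), the mitophagy receptor Bnip3 (0.598, adjusted p 0.000171), Foxo3 (0.43, adjusted p 0.00106) and Foxo1 (0.87, adjusted p 0.00806) rose by less. For Foxo1, IF mouse 16 stood far above the rest, and the gene did not pass with the adipocyte covariate (adjusted p 0.0523). The growth inhibitor myostatin (Mstn) rose too (0.45, adjusted p 0.0219), a call that was lost without AL mouse 2 and IF mouse 10, the mice that the study's protein tables do not list (adjusted p 0.0516). Of 24 autophagy genes, 4 rose and 3 fell, with a median of -0.01, so that list stood near the background of all genes. Gabarapl1, a FoxO target that marks the autophagosome (0.47, adjusted p 0.00125), the lysosomal protein Lamp2 (0.34, adjusted p 0.000115) and the lipid kinase Pik3c3 (0.40, adjusted p 0.00102) were among the risers, and Gabarapl1 did not pass with the adipocyte covariate (adjusted p 0.0676). Of the 32 proteasome subunits edgeR called 2 lower and 0 higher, with a median of -0.004; 4 were higher at an unadjusted p under 0.05, and DESeq2 called 1 higher. The count called lower dropped without AL mouse 1, 2, 3, 5 or 6 or IF mouse 11, 15 or 16; over 3 tissues 0 were called lower, and with the adipocyte covariate 3 were called higher and 3 lower.

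Fat-making genes rose together with the fat cell markers. Of 19 genes of fatty acid synthesis, 11 rose and 3 fell, with a median of 0.51. Fasn, the fatty acid synthase, stood at 12.98 to 80.3 CPM (median 22.7) in AL and 43.1 to 1332 CPM (median 166) in IF (3.74 ± 0.77, adjusted p 0.00312), and 2 IF mice lay inside the AL range. Scd1, the desaturase that makes oleate, lay at 31.96 to 212 CPM (median 70.8) in AL and 229 to 2909.9 CPM (median 739.5) in IF (3.45 ± 0.59, adjusted p 0.000861) without overlap. The elongase Elovl6 rose, lying at 0.702 to 1.88 CPM (median 0.968) in AL and 1.89 to 70.3 CPM (median 7.15) in IF (4.20, adjusted p 0.00146), and without IF mouse 12 its log2 fold change was 3.55. Acaca, the committing carboxylase (2.40, adjusted p 0.0031), the transketolase Tkt, which feeds NADPH-forming sugar flux (2.50, adjusted p 0.00375), and the citrate lyase Acly (1.28, adjusted p 0.0248) rose too. Within the same pathway the muscle form of the carboxylase, Acacb, whose malonyl-CoA restrains fat oxidation, rose only slightly (0.32, adjusted p 0.00058) and did not pass over 3 tissues (adjusted p 0.359), and Scd2 fell (-0.53, adjusted p 0.00237). With the adipocyte markers as a covariate 3 genes of the list were called higher.

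These rises tracked the adipocyte markers. Adiponectin (Adipoq) lay at 2.39 to 38.4 CPM (median 10.2) in AL and 13.04 to 169 CPM (median 52.3) in IF (2.25, adjusted p 0.0192), adipsin (Cfd) at 19.5 to 219.6 CPM (median 61.7) and 77.1 to 1163 CPM (median 519.6) (2.84, adjusted p 0.00309), and the lipid droplet protein Cidec at 3.44 to 47.9 CPM (median 12.96) and 15.6 to 244 CPM (median 81.8) (2.52, adjusted p 0.0112). The ranges of the diets overlapped for all 3, and IF mouse 11 lay inside the AL range each time. Plin1 (2.20, adjusted p 0.0329) lost its call when any 1 of 7 mice was left out, namely AL mouse 1, 3, 5, 6 or 7 or IF mouse 10 or 12 (adjusted p 0.0544 to 0.0682). Leptin (Lep) did not pass, at 0.277 to 19.1 CPM (median 3.97) and 0 to 4.12 CPM (median 2.74) (-1.25, adjusted p 0.238). The brown and beige fat gene Cidea lay at 0.192 to 4.43 CPM (median 1.08) and 2.32 to 149.9 CPM (median 9.87) (4.52, adjusted p 0.00422), and without IF mouse 12 its log2 fold change was 3.42. With the mean log2 CPM of the adipocyte markers in the fit, Scd1 still passed (1.40, adjusted p 0.00037) and Fasn (1.11, 0.211), Acaca (0.66, 0.342), Acly (0.16, 0.835), Elovl6 (1.94, 0.0971) and Tkt (0.51, 0.502) did not. Acly also lost its call without AL mouse 2 and IF mouse 10 (adjusted p 0.0575). Several of the genes with the largest rises are known from fat cells: the transmembrane protein Arxes2, which has a near-identical neighbour so that its reads may be split (0 to 1.904 CPM (median 0.343) in AL, 2.88 to 22.05 CPM (median 7.34) in IF, 4.25, adjusted p 0.000517), the protein kinase A subunit Prkar2b (3.24, adjusted p 0.00167), the phosphodiesterase Pde3b (2.75, adjusted p 0.000221) and the carbonic anhydrase Car5b (2.47, adjusted p 0.00133). Unlike Fasn, Acaca, Acly, Elovl6 and Tkt, the genes Arxes2, Prkar2b, Pde3b and Car5b did not lose their calls with the adipocyte covariate. Without AL mouse 2, the AL mouse with the highest adipocyte sum, the log2 fold change of Arxes2 was 5.05. The lipases moved the same way, with 8 of 14 lipolysis and lipid droplet genes higher and 2 lower. With the covariate 3 were higher, but Lipe and Cidec, which are in this list, are also part of the covariate. Hormone-sensitive lipase Lipe (1.86, adjusted p 0.00161) and the adipose triglyceride lipase Pnpla2 (0.76, adjusted p 0.00288) were among those that rose, and Pnpla2 did not pass with the covariate (adjusted p 0.271).

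**Figure D4:**
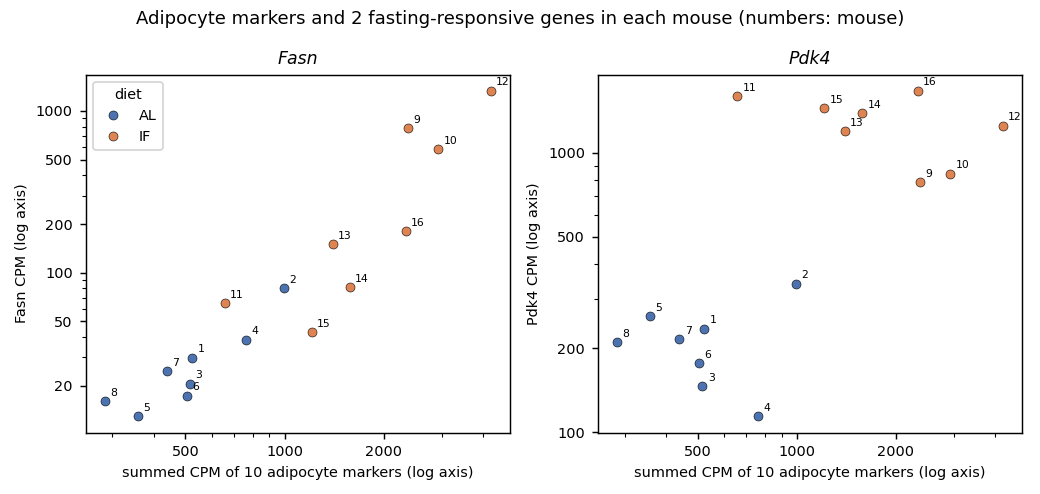
Each point is 1 mouse, labelled with its number, with the summed CPM of 10 adipocyte markers against the CPM of Fasn (left) and of Pdk4 (right), both axes logarithmic. Fasn climbs with the marker sum within both diets, and Pdk4 is higher in every IF mouse than in any AL mouse. IF mouse 11 is the only IF mouse with a marker sum inside the AL range.

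Fat markers and fat-making genes also went together between mice of the same diet. The mean log2 CPM of Adipoq, Plin1, Cidec and Cfd was set against 6 lipid genes, and Bmal1 against 4 clock genes, in the 8 AL and the 8 IF mice apart, which makes 20 relations with exact permutation p-values, adjusted over the family. 8 relations passed by Pearson's r, all with the adipocyte markers. For Scd1, Pearson's r was 0.985 in AL (exact permutation p 0.000521, adjusted 0.00546; Spearman's rho 0.929, p 0.00223, adjusted 0.0112) and 0.96 in IF (exact permutation p 0.000546, adjusted 0.00546; rho 0.952, p 0.00114, adjusted 0.0112). For Fasn, r was 0.862 in AL (exact permutation p 0.00397, adjusted 0.0159; rho 0.81, p 0.0218, adjusted 0.0484) and 0.881 in IF (exact permutation p 0.00357, adjusted 0.0159; rho 0.929, p 0.00223, adjusted 0.0112). Mice with more fat marker RNA had more Scd1 and Fasn RNA on either diet. Without the 2 mice farthest from the median, r was 0.968 and 0.947 for Scd1 and 0.708 and 0.918 for Fasn, and with 6 mice per diet the smallest adjusted p of the family was 0.0765, so none passed. By r, Acaca passed in both diets (r 0.766 and 0.895), Elovl6 in AL (0.818) and Acly in IF (0.8). Me1, the malic enzyme that muscle also expresses, did not, at r -0.313 in AL and -0.131 in IF. Between Bmal1 and Dbp, Nr1d1, Ciart or Per3, r ran from -0.505 to 0.101 in AL and from -0.694 to 0.717 in IF, with no r past the threshold. By rho, Elovl6 in IF (0.81, adjusted p 0.0484) and Bmal1 with Dbp in IF (-0.81, adjusted p 0.0484) passed and Acaca in AL did not (adjusted p 0.166).

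The share of glycolysis genes called, 6 of 24, stood near that over all genes. Of 24 genes of glucose uptake and glycolysis, 5 rose and 1 fell, with a median of -0.02. The largest called rise in the list was that of Fbp2, muscle fructose bisphosphatase, which runs against glycolysis: 35.3 to 57.9 CPM (median 48.1) in AL and 71.7 to 115 CPM (median 95.5) in IF (0.98 ± 0.11, adjusted p 3.2e-06), without overlap. Hexokinase 2 (Hk2) rose, lying at 168 to 199 CPM (median 184) in AL and 207 to 267 CPM (median 238) in IF (0.37, adjusted p 9.77e-05), Pgk1 at 560.1 to 744 CPM (median 616) in AL and 635 to 975 CPM (median 856) in IF (0.39, adjusted p 0.00154), and the regulator Pfkfb1 at 29.6 to 41.04 CPM (median 36.1) in AL and 39.2 to 74.2 CPM (median 56.8) in IF (0.66, adjusted p 0.000179). The insulin-responsive glucose transporter Slc2a4, or GLUT4, fell, lying at 573 to 707 CPM (median 652) in AL and 456 to 577 CPM (median 542) in IF (-0.28, adjusted p 0.00147), and Slc2a4 and Hk2 did not pass over 3 tissues (adjusted p 0.472 and 0.3). Around pyruvate dehydrogenase, 3 of 14 genes rose and 1 fell, a share not far above that over all genes. Besides Pdk4, the phosphatase Pdp2, which reverses what the kinase does, rose from a median of 2.96 to 4.87 CPM (0.77, adjusted p 0.00229), though not with the adipocyte covariate (adjusted p 0.102). The pyruvate carrier subunit Mpc2 fell (-0.27, adjusted p 0.00698), which did not pass over 3 tissues (adjusted p 0.0594). Of 16 glycogen genes, 6 rose, with a median of 0.15, and 3 did without AL mouse 1, 2 or 3 or IF mouse 11 or 15. Ppp1r3a, which targets the phosphatase that activates glycogen synthase, had the largest called rise among them, at 107 to 185 CPM (median 152) in AL and 149.6 to 277 CPM (median 223) in IF (0.53, adjusted p 0.0028).

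Respiratory genes fell in part, and by small amounts. Of 75 nuclear-encoded subunits of the respiratory chain and ATP synthase, 30 fell, with a median of -0.20. EdgeR called 0 higher; 1 was higher at an unadjusted p under 0.05, and DESeq2 called 1 higher. The number called lower was 18 or 19 without AL mouse 1, 2, 3 or 6 or IF mouse 16, 47 without AL mouse 8, 12 over 3 tissues and 47 with the adipocyte covariate. Cytochrome c (Cycs) stood at 356 to 469 CPM (median 416) in AL and 313 to 378 CPM (median 333) in IF (-0.29 ± 0.06, adjusted p 0.00154), cytochrome c1 (Cyc1) at 547 to 756 CPM (median 654) and 479 to 631 CPM (median 523) (-0.30, adjusted p 0.00415), and the complex I subunit Ndufs8 at 194 to 278 CPM (median 219) and 159 to 217 CPM (median 175) (-0.33, adjusted p 0.0031). The diets overlapped in all 3 genes, with 6, 5 and 7 of the 8 IF mice under the lowest AL mouse. Cox7b (-0.37, adjusted p 0.0011) and the muscle isoform Cox6a2 (-0.38, adjusted p 0.00721) fell too. Of the 13 subunits that mitochondrial DNA encodes, 4 fell, with a median of -0.22, and 8 did without IF mouse 11. Their share called, 30.8%, was not far above the 23.0% over all genes. Mitochondrial transcripts took 10.5 to 12.5% of counts in AL and 7.07 to 13.9% in IF. mt-Nd4, whose reads can be split with nuclear copies, lay at 14071 to 18752 CPM (median 16736) in AL and 9080.2 to 16207 CPM (median 12586) in IF (-0.40, adjusted p 0.00225). In the citric acid cycle 5 of 17 genes fell, among them Mdh2 (-0.18, adjusted p 0.0108), and 3 did without AL mouse 1, 3, 4, 5 or 6 or IF mouse 9, 11, 13, 14, 15 or 16. The share called, 29.4%, was not far above the 23.0% over all genes. The falls of this list did not pass in the fit over 3 tissues. Over 3 tissues, Cox6a2, mt-Nd4 and Mdh2 did not pass (adjusted p 0.328, 0.0633 and 0.178). Myoglobin (Mb), the oxygen store of oxidative fibres, fell, lying at 1061 to 2305 CPM (median 1697) in AL and 328 to 1500.4 CPM (median 938) in IF (-0.90 ± 0.25, adjusted p 0.0166), and 2 IF mice lay inside the AL range. With the replicate number as a block it did not pass (adjusted p 0.0508). Mb overlaps Apol6 on the other strand. The slow fibre genes had a median log2 fold change of -0.91, with AL mice both lowest and highest. With the mean log2 CPM of the slow fibre genes as a covariate, the log2 fold change of Cycs was -0.25 (adjusted p 0.00214), that of Ndufs8 -0.30 (0.00591) and that of Mb -0.74 (0.0084), and 18 respiratory chain genes were called lower.

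Genes of nitrogen handling rose in part. Of 21 genes of amino acid breakdown and transport, 6 rose and 3 fell. They include the transporter of large neutral amino acids Slc43a1, at 17.8 to 22.99 CPM (median 19.7) in AL and 27.6 to 42.8 CPM (median 33.7) in IF (0.75 ± 0.08, adjusted p 7.47e-07) without overlap, and the alanine transaminase Gpt2, at 168 to 214 CPM (median 182) in AL and 195 to 351 CPM (median 289) in IF (0.61, adjusted p 0.000324), while the mitochondrial aspartate transaminase Got2 fell, at 461 to 549.6 CPM (median 496) in AL and 353 to 428 CPM (median 375) in IF (-0.37, adjusted p 0.000148). Glutamine and alanine are the forms in which muscle exports nitrogen. Of 12 polyamine genes, 4 rose and 1 fell. Odc1, the first enzyme of the pathway, lay at 130.1 to 217 CPM (median 180.4) in AL and 287 to 497 CPM (median 411) in IF (1.23 ± 0.12, adjusted p 6.59e-07), again without overlap. Targets of ATF4, the factor of amino acid shortage, split: 5 of 17 rose and 2 fell. The glutathione-degrading enzyme Chac1 rose, lying at 9.44 to 184 CPM (median 40.6) in AL and 127 to 324 CPM (median 202) in IF (1.87, adjusted p 0.0136), with AL mouse 8 far above the other AL mice, and asparagine synthetase Asns at 0.726 to 2.36 CPM (median 1.13) in AL and 1.99 to 10.4 CPM (median 3.51) in IF (1.80, adjusted p 0.00181), though not with the adipocyte covariate (adjusted p 0.143). In insulin and growth factor signalling 4 of 19 genes rose and 5 fell, and 2 rose without AL mouse 1, 2, 3 or 4 or IF mouse 11. The insulin receptor substrate Irs2, a FoxO target that fasting raises in liver, rose (0.69, adjusted p 0.00884) but not with the adipocyte covariate (adjusted p 0.14). The secreted binding protein Igfbp5 fell, lying at 296 to 549 CPM (median 431) in AL and 204 to 345 CPM (median 228) in IF (-0.80, adjusted p 0.000267). Of the 8 genes for AMPK subunits and LKB1, 2 rose and 2 fell, and the muscle catalytic subunit Prkaa2 rose, lying at 111 to 154 CPM (median 134) in AL and 138 to 206 CPM (median 172) in IF (0.36, adjusted p 0.00214).

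Defences against oxidants rose and heat-shock chaperones fell, each list in part. Of 15 antioxidant genes and NRF2 targets, 8 rose and 1 fell, with a median of 0.33. Nfe2l2, which encodes NRF2, stood at 16.3 to 23.5 CPM (median 20.4) in AL and 30.2 to 36.96 CPM (median 34.4) in IF (0.74 ± 0.07, adjusted p 2.61e-07). Catalase (Cat) lay at 43.9 to 69.01 CPM (median 53.8) in AL and 77.1 to 136 CPM (median 91.03) in IF (0.77, adjusted p 0.000118) and Gclc, which makes the first step of glutathione synthesis, at 6.32 to 7.702 CPM (median 7.39) in AL and 8.19 to 11.9 CPM (median 10.4) in IF (0.51, adjusted p 0.000252). None of the 3 overlapped between the diets. Of 18 heat-shock and cold-inducible genes, 7 fell, with a median of -0.25. EdgeR called 0 higher; 2 were higher at an unadjusted p under 0.05, and DESeq2 called 1 higher. The small heat-shock protein Hspb8 fell, lying at 699 to 853 CPM (median 759) in AL and 498 to 677 CPM (median 533) in IF (-0.49 ± 0.06, adjusted p 8.19e-06) and its partner Bag3, with which it clears damaged sarcomere proteins, at 159 to 204 CPM (median 174) in AL and 122 to 156 CPM (median 141) in IF (-0.34, adjusted p 0.000582), both without overlap. Cryab, which guards desmin, fell as well (-0.49, adjusted p 0.0068). Of the NR4A receptors and immediate early genes, 4 of 17 rose and 1 fell, a share not far above that over all genes. Nr4a3, a receptor that exercise and adrenergic signals induce in muscle, lay at 0.881 to 5.998 CPM (median 1.62) in AL and 6.11 to 34.8 CPM (median 13.5) in IF (2.92 ± 0.46, adjusted p 0.000474), and Nr4a1, which the study also names, at 95.95 to 114 CPM (median 106) in AL and 164 to 227 CPM (median 194) in IF (0.87, adjusted p 3.36e-08). Jun (0.78, adjusted p 3.19e-05) and, at a low level, Myc (1.26, adjusted p 0.00048) rose with them. All 8 IF mice lay above the AL mice for Nr4a1, Nr4a3 and Jun.

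Matrix genes fell with the tendon markers. Of 25 collagen and matrix genes, 16 fell and 2 rose, with a median of -0.39. Col15a1, a collagen of the muscle basement membrane, fell, lying at 21.9 to 29.4 CPM (median 25.1) in AL and 12.1 to 15.9 CPM (median 12.8) in IF (-0.93 ± 0.08, adjusted p 6.04e-08), and Col5a3 at 35.002 to 49.5 CPM (median 42.6) in AL and 19.01 to 28.7 CPM (median 24.8) in IF (-0.81, adjusted p 1.36e-06). The crosslinking enzyme Loxl1 (-0.79, adjusted p 7.36e-07) and the collagen chaperone Serpinh1 (-0.83, adjusted p 0.00134) fell as well. Col15a1, Col5a3 and Loxl1 were lower in every IF mouse than in any AL mouse. Periostin (Postn), at a low level, rose (1.11, adjusted p 0.00311), though not with the adipocyte covariate (adjusted p 0.344). Of the tendon markers, tenomodulin (Tnmd) stood at 0.696 to 1.93 CPM (median 1.598) in AL and 0.184 to 0.5802 CPM (median 0.2699) in IF (-2.07, adjusted p 2.39e-05) and Comp at 0.562 to 8.99 CPM (median 2.23) and 0.153 to 1.08 CPM (median 0.427) (-2.58, adjusted p 0.00174). The amount of tendon in each sample was not recorded, and its part in the fall of the matrix genes was not tested.

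Genes of excitation fell in part. Of 21 genes of excitation and calcium release, 7 fell and 1 rose, with a median of -0.18. Stac3, which the voltage sensor needs to reach and open the calcium release channel, fell, lying at 331 to 388 CPM (median 351) in AL and 185 to 276 CPM (median 215) in IF (-0.66 ± 0.07, adjusted p 1.07e-06). Kcnj11, the pore of the ATP-sensitive potassium channel, fell, lying at 203 to 225 CPM (median 219) in AL and 121 to 177 CPM (median 143) in IF (-0.57, adjusted p 1.39e-06), and the inward rectifier Kcnj2 (-0.64, adjusted p 0.00333) fell with it but not with the adipocyte covariate (adjusted p 0.0924). In these 3 genes no IF mouse reached the AL range. Jph2, which holds the membranes of the triad together, lay at 1193 to 1525 CPM (median 1424) in AL and 806 to 1336 CPM (median 1001) in IF (-0.45, adjusted p 0.000589), and not past the threshold over 3 tissues (adjusted p 0.103). Among 12 myogenic and MEF2 factors, 2 rose and 1 fell, a share near that over all genes. Myod1, higher in fast fibres and known to follow the clock, fell, lying at 32.3 to 50.5 CPM (median 35.3) in AL and 17.5 to 39.8 CPM (median 23.1) in IF (-0.602, adjusted p 0.013), and Myf6, the factor of mature fibres, rose, lying at 73.9 to 95.7 CPM (median 77.4) in AL and 90.9 to 149 CPM (median 128) in IF (0.61, adjusted p 1.5e-05).

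The largest changes among genes with a mean of at least 1 CPM and no overlap between the diets brought in genes outside these lists. The lack of overlap in the 18 genes given next was thus a condition of their choice and not a result. Pdk4, Angptl4, Ddit4, Scd1, Elovl6, Nr4a3, Nr1d1 and Arxes2, given above, were also taken by this rule, so the same holds for them. Cyp2e1, the cytochrome that oxidises ketones and ethanol in liver, stood at 1.18 to 11.7 CPM (median 4.75) in AL and 35.1 to 193 CPM (median 83.8) in IF (4.02 ± 0.50, adjusted p 7.05e-05). Arrdc2, an arrestin-domain protein, lay at 7.33 to 21.1 CPM (median 10.9) in AL and 41.2 to 224 CPM (median 179) in IF (3.78 ± 0.35, adjusted p 3.48e-06). Depp1, a FoxO target that fasting is known to induce, lay at 3.51 to 6.503 CPM (median 4.52) in AL and 18.6 to 64.4 CPM (median 43.5) in IF (3.14, adjusted p 9.14e-07), and Slc25a25, a mitochondrial carrier of ATP and phosphate, at 7.86 to 18.2 CPM (median 12.1) in AL and 37.04 to 178 CPM (median 51.5) in IF (2.47, adjusted p 0.000117). The secreted ligand Nrg4, which overlaps a more abundant gene, rose at a low level (2.53, adjusted p 0.000901), and not with the adipocyte covariate (adjusted p 0.0646). Cyp2e1 kept a log2 fold change of 2.52 with that covariate (adjusted p 2.32e-05). Among the falls, the homeobox factor Six2 lay at 15.9 to 45.2 CPM (median 24.9) in AL and 0.617 to 13.97 CPM (median 3.01) in IF (-2.46 ± 0.53, adjusted p 0.00416). Grip2, a scaffold protein, fell, lying at 8.45 to 13.3 CPM (median 10.97) in AL and 2.52 to 4.12 CPM (median 3.68) in IF (-1.63, adjusted p 3.99e-09), the receptor Relt at 24.3 to 34.9 CPM (median 29.4) in AL and 10.0001 to 15.6 CPM (median 11.2) in IF (-1.30, adjusted p 4.99e-09), and Mrtfa, the actin-sensing coactivator of serum response factor, at 32.98 to 56.9 CPM (median 48.8) in AL and 15.4 to 27.01 CPM (median 17.5) in IF (-1.27, adjusted p 1.99e-06). The retinoic acid receptor Rara fell, lying at 12.7 to 21.02 CPM (median 17.2) in AL and 5.22 to 10.1 CPM (median 7.198) in IF (-1.18, adjusted p 2.65e-07), the secretory kinase Fam20c at 19.7 to 29.9 CPM (median 22.8) in AL and 6.04 to 12.4 CPM (median 10.1) in IF (-1.27, adjusted p 5.38e-07), and Tnfaip2 at 41.7 to 76.2 CPM (median 54.01) in AL and 16.5 to 35.2 CPM (median 22.1) in IF (-1.27, adjusted p 8.88e-05). Spon2 (-1.80, adjusted p 0.000379), Arnt2 (-1.79, adjusted p 0.000336), the fatty acyl-CoA synthetase Slc27a3 (-1.51, adjusted p 8.45e-06) and the receptor Mrgprf (-1.33, adjusted p 0.000202) fell at lower levels. The noncoding genes Gm17218 (-1.47, adjusted p 0.000869) and D830024N08Rik (-1.24, adjusted p 8.44e-06) each overlap a far more abundant coding gene, and the first did not pass over 3 tissues (adjusted p 0.125).

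Among the most abundant genes that changed by at least 1.5-fold, carbonic anhydrase 3 (Car3), a marker of slow fibres and of fat, rose, lying at 765 to 1756 CPM (median 1404) in AL and 1768 to 2702 CPM (median 2268) in IF (0.73 ± 0.17, adjusted p 0.00495), and the kinase Mylk4 at 458 to 861 CPM (median 699) in AL and 1044 to 1602 CPM (median 1291) in IF (0.89 ± 0.11, adjusted p 1.03e-05). The nuclear noncoding RNA Neat1, which builds paraspeckles, rose, lying at 494 to 902 CPM (median 639.7) in AL and 972 to 1392 CPM (median 1128) in IF (0.80, adjusted p 4.42e-05). No mouse overlapped in Car3, Mylk4 or Neat1. The fat cell fatty acid carrier Fabp4 lay at 132 to 409 CPM (median 229) in AL and 298 to 1750.0 CPM (median 774) in IF (1.81, adjusted p 0.0014). A ribosomal RNA gene, Rn18s-rs5, fell, lying at 892 to 1744 CPM (median 1422) in AL and 607 to 1197 CPM (median 757) in IF (-0.83, adjusted p 0.000317), which did not pass over 3 tissues (adjusted p 0.14). Libraries were made from polyadenylated RNA.

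Some transcripts that the study names in muscle were picked from these libraries, so their direction is not independent evidence. Pdk4 and Nr4a1 among them rose, and Nr1d1, Kcnj11 and Grip2 fell. So did the membrane scaffold Ank1, at 545 to 629 CPM (median 609) in AL and 327 to 469.8 CPM (median 378) in IF (-0.64, adjusted p 4.53e-07), the adaptor Shc2, at 12.6 to 23.5 CPM (median 18.5) in AL and 8.52 to 12.7 CPM (median 9.75) in IF (-0.91, adjusted p 1.7e-06), and the mitotic kinase Aurka, at 11.8 to 17.9 CPM (median 13.6) in AL and 4.64 to 10.6 CPM (median 6.11) in IF (-1.12, adjusted p 3.48e-06). Ndufs4 (212 to 268 CPM (median 252) in AL and 199 to 259.9 CPM (median 239) in IF, -0.04, adjusted p 0.693) did not pass. Of 25 genes whose proteins the study names in muscle, 24 were tested, 6 rose and 4 fell, with a median of -0.04; these proteins were picked in mice of the same study, and their direction is not independent evidence either. Without AL mouse 2 or IF mouse 14, 2 fell; the falls did not pass over 3 tissues, and with the adipocyte covariate 3 rose and 6 fell. None of the 5 Serpina1 genes, whose liver-made protein the study follows across tissues, passed the expression filter in muscle.

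The muscle of female mice gives the nearest comparison, with 8 AL and 8 IF libraries of its own. Their labels give sex, tissue and diet. The length of the diet, the daily fast and the hours of sampling are stated for the males alone, and the length and fast entered for the females in the sample table were taken over from the males, so sex cannot be told apart from anything else that differed between the 2 sets. In females 1 of 15308 genes passed in edgeR (0.00653%), with 1644 at an unadjusted p under 0.05 and 91 called by DESeq2. The gene was Rn18s-rs5, which rose in females (1.003, adjusted p 0.00204) and fell in males. Of the 3428 genes called in males and tested in both sexes, 39.5% had the same sign of change in females. Tested directly, the response to diet differed between the sexes for 2314 of 16346 genes (14.2%). The genes given next were named for their change in males, which is 1 side of this test, so they do not stand for all genes. Each difference is that of the joint fit and can depart from the subtraction of the separate values. Some genes of fuel use differed by wide margins. Pdk4 lay at 15.3 to 852 CPM (median 212) in female AL and 78.8 to 467 CPM (median 203) in female IF mice, a log2 fold change of -0.53 against 2.58 in males (difference 3.08, adjusted p 0.00372). Ucp3 was 0.07 in females (difference 2.07, adjusted p 0.000248) and Angptl4 -0.61 (difference 3.38, adjusted p 0.00117). The PPAR target list, with a median of 1.03 in males, had a median of -0.21 in females.

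Some genes of protein breakdown, the clock and lipid metabolism differed between the sexes too. Fbxo32 had a log2 fold change of -0.21 in females (difference 1.42, adjusted p 0.00436) and Trim63 of 0.01 (difference 1.11, adjusted p 0.000833). Of the glucocorticoid-induced genes, the differences were 2.49 for Ddit4 (adjusted p 0.000122), 1.06 for Tsc22d3 (0.000185), 0.81 for Klf15 (2.45e-05) and 1.31 for Glul (1.8e-05). In the clock, Nr1d1 lay at 130.3 to 233 CPM (median 189) in female AL and 62.6 to 189 CPM (median 153) in female IF mice (difference -2.15, adjusted p 4.93e-07), Per1 differed by 1.77 (6.13e-05) and Per3 by 1.05 (3.95e-05). Bmal1, at -0.56 in females, was not shown to differ (difference -0.46, adjusted p 0.326). The lipid genes Fasn (4.14, adjusted p 0.00523) and Scd1 (3.96, 0.000719) differed as well; the adipocyte markers had a median of 2.20 in males and -0.26 in females. Scd1 was at 59.2 to 389.9 CPM (median 182) in female AL and 15.9 to 266 CPM (median 151) in female IF mice. Cyp2e1 (4.11, 7.76e-05), Stac3 (-0.80, 1.41e-05), Kcnj11 (-0.77, 1.75e-05) and Col15a1 (-0.76, 0.000923) differed too. For Cebpb the difference was -0.54 (adjusted p 0.378), for Mylk4 0.49 (0.189) and for Car3 0.42 (0.299), none of which passed.

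Liver of the same 16 mice shows where the muscle response differed. With the mouse as a block, the diet response differed between muscle and liver for 5524 of 18222 genes (30.3%). The differences are those of this joint fit and can depart from the subtraction of the separate values. Fasn and Scd1 went in opposite directions in the 2 tissues: Fasn changed by -2.18 in liver (adjusted p 7.78e-07) against 3.74 in muscle (difference 5.04, adjusted p 4.1e-05), and Scd1 by -0.91 against 3.45 (difference 4.18, adjusted p 1.48e-05). In muscle Fasn did not pass with the adipocyte covariate. Pdk4 rose in both, by 1.75 in liver, and more in muscle (difference 0.83, adjusted p 0.0121), while for Angptl4, at 2.83 in liver, no difference was shown (-0.11, adjusted p 0.92). Ddit4 (-0.27 in liver, difference 3.08, adjusted p 4.81e-08) differed as well and was not called in liver (adjusted p 0.48). Clock genes moved in both tissues, several of them further in liver. Bmal1 changed by -1.91 there (difference 0.91, adjusted p 0.000366), Npas2 changed by -6.22 (difference 4.09, 0.000884) and Per1 by 4.53 (difference -2.46, 2.51e-07). Nr1d1 changed by -1.96 in liver, and a difference was not shown (adjusted p 0.141). Cry1 rose in liver (0.96) and fell in muscle (difference -1.45, adjusted p 8e-05). Dbp and Fkbp5, neither called in muscle, rose in liver by 1.51 and 2.46 (differences -1.67 and -2.48, adjusted p 0.000113 and 6.57e-07).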

How the data were processed

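The deposited values are raw read counts per gene, made by the authors from poly(A)-selected, dUTP directional libraries with CASAVA, HISAT2 and featureCounts on mm39, with no strand setting given in the sources used here. Members and gene lists were chosen with earlier results of these data known. Counts were tested as deposited in R 4.3.3 with edgeR 4.0.16 (TMM, filterByExpr with a minimum count of 10 and a minimum total of 15, glmQLFit with robust fitting, glmQLFTest), with p-values adjusted by Benjamini-Hochberg over all genes tested and a threshold of 0.05. DESeq2 1.42.0 was the other tool, and limma 3.58.1 was loaded with edgeR. Principal components and distances used log2 CPM with a prior count of 2, and the distance share was tested in R by exact permutation, as were the correlations, two-sided, in Python 3.11.15 with numpy 2.4.6 and pandas 2.3.3. The figures were drawn with matplotlib 3.10.9. The edgeR test of the male mice and the permutation of distances were checked on simulated data, the other tests were not.

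The male comparison used 8 AL and 8 IF libraries with no covariate. The sex by diet interaction used all 32 muscle libraries, and the tissue by diet interaction used muscle and liver of mice 1 to 16 with the mouse as a block. Named genes were the 15 largest called increases and the 15 largest called decreases with a mean of at least 1 CPM and no overlap between the diets, the 10 most abundant called genes that changed by at least 1.5-fold, and some of the called members of the 58 lists, picked with their results known; the other called members are counted but not named. Of the lists, 15 are cell type markers, 40 pathways and 3 named by the study. Of uncalled members, those the study names, those in the correlation family and the most abundant uncalled gene of some lists were named. Not every gene that the rules on size and abundance take is given. Alternatives covered scaling, tool, filter, threshold, a replicate block, left-out mice, marker covariates and a fit over 3 tissues. The number of per-sample columns left unmapped was 0. Depth limits low genes, and counting error is part of the spread between mice.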

Additional observations from a re-analysis of the deposited data

Results flagged for a closer look

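In a group of 8 mice, 1 mouse can lie far from the other 7. Of 350 groups examined, which were named genes, marker sums and library measures such as depth in each diet, 48 had such a mouse by Dixon's test. Chance gives about 1 in 20 for independent groups of normally spread values. The CPM used here need not be normally spread, and many of the genes flagged move together, so the count cannot show an excess. Each value here is the gap to the nearest mouse as a share of the range of the 8. AL mouse 2 was far above the others in Lpl (0.533), Cd36 (0.570), Fbxo21 (0.588), Cfd (0.597), Cidea (0.570), Fasn (0.620), Acaca (0.618), Arxes2 (0.654), Pde3b (0.552) and the summed erythrocyte markers (0.598). For Ppargc1a (0.546), Myf6 (0.553) and Arrdc2 (0.565), AL mouse 5 stood highest and apart. AL mouse 1 stood apart at the top for Npas2 (0.541), Fkbp5 (0.585) and ENSMUSG00000121096 (0.565). The highest value, well separated, was that of AL mouse 8 for Klf15 (0.596) and Chac1 (0.648). AL mouse 4 was far above the others in Comp (0.575).

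For Gm17218 (0.617), AL mouse 3 stood highest and apart. IF mouse 12 stood apart at the top for Lpl (0.627), Cd36 (0.731), Acsl1 (0.698), Pparg (0.791), Gabarapl1 (0.643), Cidea (0.741), Acaca (0.534), Scd1 (0.596), Tkt (0.599), Acacb (0.720), Pnpla2 (0.619), Pdp2 (0.593), Ndufs8 (0.540), Asns (0.545), Irs2 (0.553), Postn (0.538), Cat (0.608) and Pde3b (0.548). The highest value, well separated, was that of IF mouse 10 for Loxl1 (0.543), Rn18s-rs5 (0.640) and the summed Schwann cell markers (0.527). IF mouse 10 was far below the others in Fbxo32 (0.541). IF mouse 16 was far above the others in Foxo1 (0.769). IF mouse 11 was far below the others in Slc2a4 (0.604). IF mouse 9 stood apart at the top for Hspb8 (0.663), Shc2 (0.619), Aurka (0.659) and Slc25a25 (0.631).

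The response to diet differed between the sexes by the interaction test for 118 of 156 named genes. Most of them were named for their change in males, which is 1 side of this test, so this share does not stand for all genes. Only those compared between the sexes in the report follow, given as the male minus female difference of the joint fit in muscle: Pdk4 (3.08), Ucp3 (2.07), Angptl4 (3.38), Per1 (1.77), Per3 (1.05), Nr1d1 (-2.15), Tsc22d3 (1.06), Klf15 (0.81), Ddit4 (2.49), Glul (1.31), Fbxo32 (1.42), Trim63 (1.11), Fasn (4.14), Scd1 (3.96), Col15a1 (-0.76), Stac3 (-0.80), Kcnj11 (-0.77), Cyp2e1 (4.11) and Rn18s-rs5 (-1.85).

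Of the genes compared with liver in the report, it differed between muscle and liver of the male mice for these, given as the muscle minus liver difference of the joint fit with the mouse as a block, which can depart from the subtraction of the separate values: Pdk4 (0.83), Arntl (0.91), Npas2 (4.09), Per1 (-2.46), Cry1 (-1.45), Dbp (-1.67), Ddit4 (3.08), Fkbp5 (-2.48), Fasn (5.04) and Scd1 (4.18).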

How the results depend on the processing

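Of 151 named genes called, 109 kept call and direction under each alternative that tested them, of 27, and 42 lost the call under at least 1, all but 20 of them under a marker covariate alone. Of 5 named genes not called, 1 was called under an alternative, which was Lep with the adipocyte covariate that it is part of. With at least 10 counts in every library 144 of the named genes called were tested. The count of genes called was 3464 with RLE scaling, 3081 without a filter, 3360 with at least 10 counts in every library, 3828 with DESeq2, and 2933 to 3740 with 1 mouse left out. It moved beyond 1.5 times to 5309 at an unadjusted p under 0.05, 399 with at least a 2-fold change and 2202 in the fit over 3 tissues, which tests other genes. The count of list members called, 282, was 238 to 304 with 1 mouse left out, 177 over 3 tissues and 52 at 2-fold. In females DESeq2 called 91 genes where edgeR called 1, and the cause was not tested. Without the 2 mice farthest from the median, 0 of 20 correlations passed the exact permutation test of r, with 6 mice per diet. The distance share of 23.8% was 23.3 to 25.4% with 1 mouse left out.

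With the replicate number as a block, 3141 genes were called. Numbers do not pair mice: of 8 same-numbered AL and IF pairs, 1 had r above 0.1, r ran from -0.14 to 0.108, and 0 of 8 AL mice correlated best with the IF mouse of their own number.

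Without AL mouse 8 and IF mouse 11, chosen after seeing the data, 3456 genes were called.

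Direction turned for genes near 0. With 1 mouse left out, the log2 fold change of Ciart ran from -0.207 to 0.092 and that of Fkbp5 from -0.303 to 0.0335. Ciart was 0.0449 with the block, 0.0921 without AL mouse 8 and IF mouse 11, 0.572 with the adipocyte covariate and 0.098 with the erythrocyte covariate. Fkbp5 was 0.00967 with the adipocyte covariate, and with the slow fibre covariate Ndufs4 was 0.00547. Plin1, called higher, was -0.414 with the adipocyte covariate. Plin1, Adipoq, Cidec and Cidea are part of that covariate, so their losses with it are built in. Mstn, Acly and Mb lost their calls with the block, Mstn and Plin1 without a filter, and Acly and Plin1 with the slow fibre covariate. Over 3 tissues Ppard, Rxrg, Cry1, Nr1d2, Bhlhe40, Acacb, Hk2, Slc2a4, Mpc2, Cox6a2, mt-Nd4, Mdh2, Jph2, Herpud1, Gm17218 and Rn18s-rs5 did not pass, and with the adipocyte covariate Ucp2, Lpl, Cd36, Acsl1, Pparg, Bhlhe40, Foxo1, Gabarapl1, Adipoq, Plin1, Cidec, Cidea, Fasn, Acaca, Acly, Elovl6, Tkt, Pnpla2, Pdp2, Asns, Irs2, Postn, Kcnj2, Trf and Nrg4 did not. Over 3 tissues 10 matrix, 4 excitation and 1 insulin signalling genes were called lower and 5 antioxidant, 3 glycolysis and 2 glycogen genes higher, and with the adipocyte covariate 2 ATF4 targets were higher. Over 3 tissues 1 clock output, 2 mitochondrially encoded and 1 interferon genes were lower and 2 insulin signalling, 2 polyamine and 1 cell cycle genes higher. With the adipocyte covariate 1 clock output, 2 mitochondrially encoded, 5 interferon, 5 amino acid, 3 glycolysis and 7 ribosomal protein genes were lower and 2 cholesterol synthesis genes higher. Many list counts of 1 or 2 genes moved beyond 1.5 times with some mouse left out, as 1 gene is enough for that. The correlation of Bmal1 without 2 mice was 0.375 with Dbp, 0.414 with Ciart and 0.504 with Per3 in AL and 0.245 with Per3 in IF. The cause was not tested. Genes under about 1 CPM are limited by depth.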

Other observations

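The lists outside the accounts above are to be read against the 23.0% of all genes called. The shares of the lists for cytosolic ribosomal proteins (6.41%) and interferon and antigen presentation (18.8%) lay below it, and those for the cell cycle (25%) and NAD metabolism (29.4%) not far above it. Of 23 cholesterol synthesis genes, 4 rose and 5 fell, with a median of -0.06, and 2 rose without AL mouse 1, 3 or 5 or IF mouse 11 or 14. Srebf2, the factor that switches the pathway on, fell, lying at 18.3 to 24.02 CPM (median 20.4) in AL and 10.4 to 15.1 CPM (median 13.2) in IF (-0.67, adjusted p 3.48e-06), without overlap. Of 20 chaperone and folding genes of the endoplasmic reticulum, 3 rose and 4 fell: Sdf2l1, which assists folding, fell (-0.88, adjusted p 0.000131), and Herpud1, which acts in degradation there, rose (0.35, adjusted p 0.000441). Over 3 tissues 1 fell and the rises did not pass. Of 17 genes of NAD metabolism, 2 rose and 3 fell. Nmrk2, the nicotinamide riboside kinase of muscle, fell, lying at 123 to 329 CPM (median 198) in AL and 61.1 to 139 CPM (median 90.4) in IF (-1.14, adjusted p 0.000994), and 1 IF mouse lay inside the AL range.

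Of 78 cytosolic ribosomal protein genes, 1 rose and 4 fell, with a median of -0.06, and 9 fell without AL mouse 8, while the falls did not pass over 3 tissues. At the neuromuscular junction 4 of 15 genes rose and 4 fell, 2 rose without AL mouse 3, 4 or 8 or IF mouse 11, 15 or 16, and 2 fell without AL mouse 1, 3 or 7. Over 3 tissues 1 rose and the falls did not pass, and with the adipocyte covariate 2 rose and 2 fell. Of 16 interferon and antigen presentation genes 3 fell, among them Isg15 (-0.99, adjusted p 0.00203), and 6 did without IF mouse 12. Of 14 myokines and other secreted factors, 3 rose and 2 fell, Metrnl among the latter (-0.70, adjusted p 0.00281). Of 6 metallothioneins and zinc transporters, 2 were higher and 2 lower, but over 3 tissues 1 was higher and 0 lower, and with the adipocyte covariate none passed in either direction. Of 16 cell cycle genes 3 rose and 1 fell. Fast fibre genes summed to 154241 to 174219 CPM (median 159648) in AL and 125570 to 179190 CPM (median 152826) in IF, and transferrin (Trf), the hepatocyte marker that also marks other cells, rose (1.39, adjusted p 0.00285), though not with the adipocyte covariate (adjusted p 0.286).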
